A study of Homo sapiens with 6 samples.

Results

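The transcriptome of IMR-90 lung fibroblasts without induction of their hairpin was described from the 3 Control libraries, chosen by their labels, out of 6 libraries in the series. IMR-90 (CCL-186) is an established line of human fetal lung fibroblasts, grown here in EMEM with 10% FBS. The Control cells carried a lentiviral Tet-pLKO-puro construct that makes a short hairpin RNA against ZNF469 when doxycycline is added, were kept in puromycin, and received no doxycycline. The labels give their genotype as wild-type, whereas the study describes the same transduced line without doxycycline. The submitted design calls the libraries technical replicates, so the SDs below may hold no variation between separate cultures. No test was run, since 1 condition is described. The data come from whole cultures, in which fewer cells of a type and less RNA per cell cannot be told apart.

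Fibroblasts build and remodel the extracellular matrix, the protein meshwork that holds a tissue together. They secrete fibrillar collagens, fibronectin and the enzymes that fold, crosslink and cut them, and they pull on the matrix through a contractile actin cytoskeleton. In the lung they surround airways, vessels and alveoli, and their overactivity lays down scar in fibrosis.

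Genes of the matrix and of the cytoskeleton were among the most abundant. FN1, which encodes fibronectin, held more counts than any other feature, and ACTB, cytoplasmic beta-actin, had the highest FPKM (fragments per kilobase of transcript per 1000000 fragments). The collagen I chains COL1A1 and COL1A2 stood at ranks 2 and 5 by counts and at ranks 13 and 17 by FPKM. All 28 genes of a fibroblast identity list reached 1 FPKM in every library, against 45.8% of all features. Of 176 markers of other lineages, 144 stayed under 1 FPKM in every library, against 51.8% of all features. Both sets were chosen with earlier results of these data known. ACTA2 and TAGLN, known from smooth muscle, were counted with the cytoskeletal genes and not with the lineage markers.

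The counts of a library summed to 34057675, 35329075 and 35322410 in Control replicates 1, 2 and 3. The table lists 23754 features, 19974 of them with Ensembl identifiers and 3780 without, the latter being loci that the authors assembled outside the annotation. The unannotated loci took 0.938% to 0.976% of the counts. In all, 5948 features had 0 counts in every library (25.0%), and 15003 had counts in each. A count of 0 allows a level of up to 0.0849 to 0.0881 CPM (counts per 1000000 counts of the library; a floor of 3 counts, covering counting error only). Between pairs of libraries the chi-square of the counts per degree of freedom, a ratio of variances, was 5.46 to 6.61. This is more than sampling alone gives, and no library was treated as a second copy of another. The 20 most abundant features by FPKM were the same in all libraries except for 1, and 957 of the top 1000 were shared.

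Expression was spread over a wide range. A mean of at least 1 FPKM was reached by 11153 features (47.0%), of at least 10 FPKM by 5137, of at least 100 FPKM by 584 and of at least 1000 FPKM by 37. The 37 features at the top held 15.3% of all counts, and the 584 held 46.2%. It took 598 features to reach 50% of the counts, with 590 to 603 in single libraries. The 10 leading features by counts held 10.2% ± 0.116 of the counts (SD, n = 3), and the 100 leading features held 26.5% ± 0.160.

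**Figure D1:**
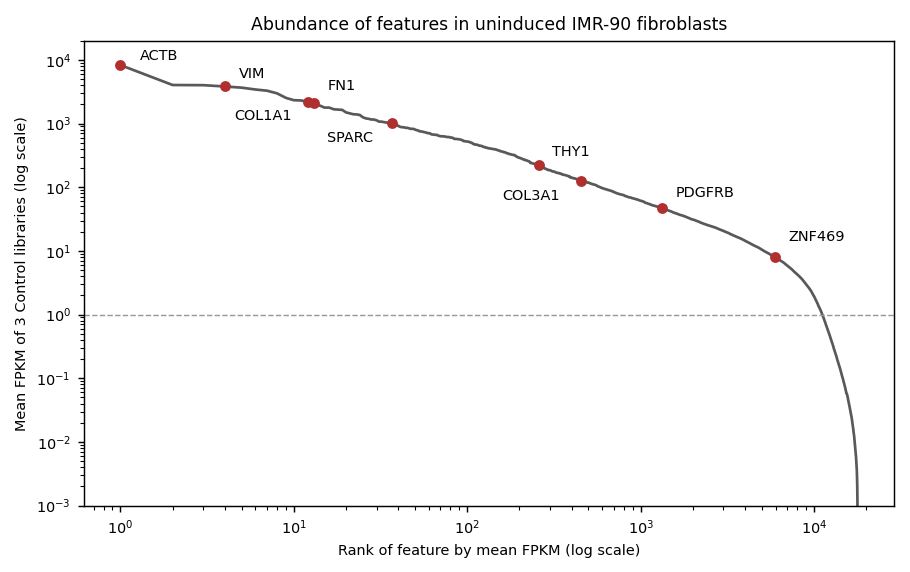
Mean FPKM over the 3 Control libraries (log axis) against abundance rank (log axis), drawn as a line over the features with a mean above 0, with named genes as points and 1 FPKM as a dashed line. ACTB stood at the top with 8290 FPKM, COL1A1 at rank 13, SPARC at rank 37 and ZNF469 at rank 5940.

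The 37 features at or above 1000 FPKM included 11 cytoskeletal, 7 mitochondrially encoded, 4 ribosomal protein, 2 collagen and 2 matrix glycoprotein genes. A pair of glycolytic enzymes and the elongation factor EEF1A1 were also among them. Outside the lists, 7 more were LGALS1, FTL, ANXA2, TUBA1B, FTH1, ITGB1 and S100A6. LGALS1 encodes galectin-1, a secreted sugar-binding protein, at 2533 FPKM. FTL and FTH1 encode the chains of ferritin, the iron store of the cell, with FTL at 2307 FPKM. ITGB1 encodes the beta chain shared by many integrin receptors for matrix, and it was among the 20 features with the most counts.

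Actin led the cytoskeletal genes. ACTB (chr7:5526409-5563902, GRCh38) reached 8372, 8010 and 8488 FPKM in replicates 1, 2 and 3. Its close relative ACTG1, cytoplasmic gamma-actin, reached 4042, 3991 and 4066 FPKM, so the ratio of the FPKM values was 2.06 ± 0.0425 (SD, n = 3). ACTB was the higher in each library, with no overlap. VIM, the intermediate filament protein vimentin (chr10:17228241-17237593), reached 3842, 3776 and 3857 FPKM. TMSB10, a small peptide that binds actin monomers, had a mean of 3428 FPKM. MYL6, an essential myosin light chain, had a mean of 1781 FPKM and TPM2, a tropomyosin, of 1641 FPKM, at ranks 16 and 19. As near-identical family members, the actin genes can share reads, and how the authors' counting split such reads is not given in the sources used here.

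Some genes known from smooth muscle were abundant as well, while smooth muscle myosin MYH11 and desmin (DES) had means of 0.341 and 0.166 FPKM. ACTA2, the alpha smooth muscle actin that is widely used to mark myofibroblasts, had 858, 886 and 881 FPKM in replicates 1, 2 and 3. TAGLN, the actin-bundling protein transgelin, stood at rank 10 with 2320, 2318 and 2349 FPKM. MYL9, a regulatory myosin light chain, had a mean of 448 FPKM, and CNN1, calponin, 127 FPKM. All 36 genes of the cytoskeletal and contractile list passed 1 FPKM in each library and 32 had a mean of at least 100 FPKM, against 45.8% and 2.46% of all features. The median of the list was 396 FPKM, against 0.619 FPKM over all features. Together these 36 genes held 7.03% ± 0.0994 of the counts and 9.92% of the summed FPKM.

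Several of these cytoskeletal genes carry in their promoter a CArG box, the sequence read by serum response factor (SRF), a regulator of actin genes. The search covered the 250 bases before each start site in RefSeq promoters of GRCh38.p14. The CArG box was taken as CC and GG with 6 bases of A or T between them, and since both ends mirror each other the search covers both strands. Promoters were found for 32 of the 36 genes, and 6 of their 53 promoters held a box (11.3%), each in a different gene. ACTB and TAGLN are among the genes without a promoter entry, so they were not searched. Over all 20923 promoters matched to the table the share was 1.19%. It was 2.50% for genes from 100 to 1000 FPKM and 7.69% for genes at or above 1000 FPKM (2 of 26 promoters). These 2 belong to ACTG1 and TPM4 of the list itself, so the 7.69% is no separate background. The class from 100 to 1000 FPKM also holds list members with a box, namely ACTN1, FLNA, ACTG2 and CNN2. Among the other lists the share was highest for the lung mesenchyme factors, with 4 of 19 promoters (21.1%) in 3 genes. A match describes the letters and is not a shown binding site, and no match says only that the letters are not in the window. The 5 windows below, with the box in capitals, show the motif at some of the highest-expressed genes of these cells, and the windows of ACTG1, TPM4, ACTN1 and ACTG2 lie in introns of longer transcripts of the same gene in GENCODE 44.
ACTG1, chr17:81512872-81512905, minus strand: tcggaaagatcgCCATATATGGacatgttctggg
TPM4, chr19:16067353-16067386, plus strand: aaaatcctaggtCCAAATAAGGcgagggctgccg
ACTN1, chr14:68977716-68977749, minus strand: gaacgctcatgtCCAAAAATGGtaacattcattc
ACTG2, chr2:73892886-73892919, plus strand: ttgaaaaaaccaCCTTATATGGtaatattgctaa
CNN2, chr19:1026507-1026540, plus strand: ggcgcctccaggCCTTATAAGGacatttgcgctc

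The boxes of these genes start 94 bases before the start site in ACTG1, 173 in TPM4, 171 in ACTN1, 110 in ACTG2 and 89 in CNN2. Their mean levels ran from 4033 FPKM for ACTG1 and 1187 FPKM for TPM4, a tropomyosin that stiffens actin filaments, to 235 FPKM for CNN2, a calponin. FLNA, the actin crosslinker filamin A, also held a box. SRF itself had 25.4, 25.9 and 26.5 FPKM, and its actin-sensing partner MRTFA had 10.3, 10.8 and 11.8 FPKM. Outside the list, SMTN, the smooth muscle protein smoothelin, held a box and had a mean of 48.3 FPKM.

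The genes of the matrix and of secreted proteins were counted in 5 lists with 237 genes. Of these, 167 reached 1 FPKM in every library, 69 stayed under 1 FPKM in every library and 17 had 0 counts. Over all features these shares were 45.8%, 51.8% and 25.0%. Together the 237 genes took 12.5%, 12.3% and 12.4% of the counts in replicates 1, 2 and 3, a mean of 12.4% ± 0.0784 (SD, n = 3). By summed FPKM, which corrects for transcript length, their share was 6.59% ± 0.0342. The mean share by counts was thus higher than the mean share by FPKM, and the difference was much larger than the spread between libraries. The leading matrix transcripts had many counts for their FPKM, so the length implied by that ratio was large. It is made from the same counts and FPKM as the shares, so it is no separate account of their difference. The length implied by the ratio of counts to FPKM was 8.87 kb for FN1, 7.41 kb for COL1A1 and 5.97 kb for COL1A2, against a median of 3.31 kb for all features at or above 1 FPKM and 0.945 kb for ribosomal proteins.

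**Figure D2:**
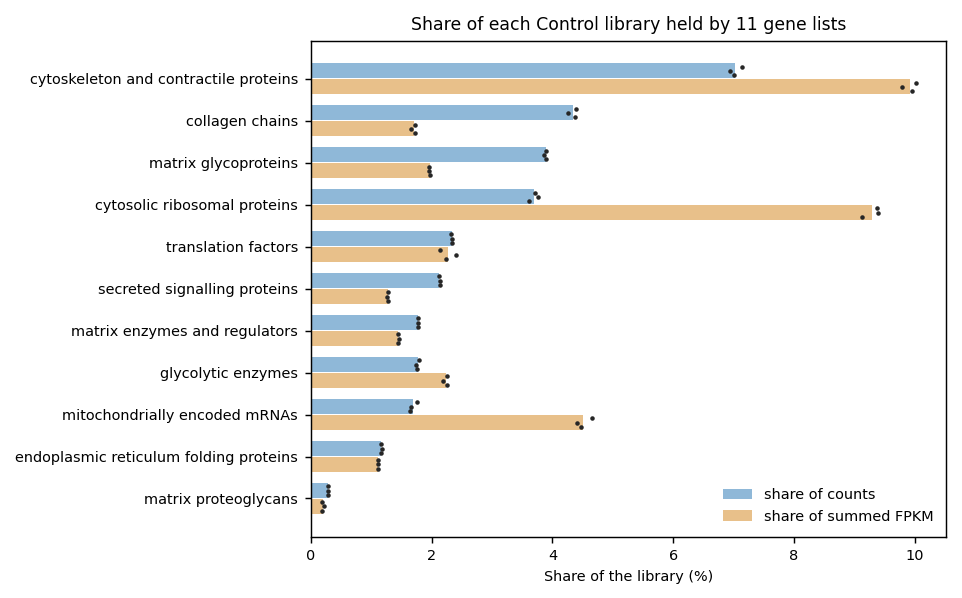
Share of each gene list in percent of the counts and in percent of the summed FPKM, as the mean of the 3 Control libraries with points for single libraries. Collagen chains held 4.34% of the counts but 1.70% of the summed FPKM, whereas cytosolic ribosomal proteins held 3.70% of the counts and 9.30% of the summed FPKM.

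Collagen chains alone took 4.37%, 4.26% and 4.39% of the counts in replicates 1, 2 and 3. Of the 44 chains in the list, 20 reached 1 FPKM in every library, 24 stayed under it in every library and 7 had 0 counts. A mean of at least 100 FPKM was reached by 10. Over all features these shares were 45.8%, 51.8%, 25.0% and 2.46%, so presence at 1 FPKM was about as common as over all features. The median chain had 0.486 FPKM, below the 0.619 FPKM of the median feature, so the share of the list rested on a few chains. COL1A1 alone held 35.5% of the collagen counts, and the 4 leading chains held 72.8%.

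Type I collagen, the main fibril of scar, bone and tendon, is a trimer of COL1A1 and COL1A2 chains. COL1A1 (chr17:50184101-50201632) had 2107, 2028 and 2097 FPKM in replicates 1, 2 and 3, and COL1A2 (chr7:94394895-94431227) had 1693, 1670 and 1666 FPKM. The COL1A1 values were above the COL1A2 values in each library, with no overlap, and the ratio of the FPKM values was 1.24 ± 0.0225 (SD, n = 3). By counts, without correction for length, the ratio was 1.54. Both chains made up 58.5% ± 0.0483 of the collagen counts.

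COL3A1, the chain of type III collagen, which forms thin fibres beside type I, was far lower, at 130, 124 and 127 FPKM. The FPKM of COL1A1 was 16.3 ± 0.161 times that of COL3A1 (SD, n = 3). Type V collagen, which starts the assembly of type I fibrils, had COL5A2 at a mean of 120 FPKM and COL5A1 at 81.5 FPKM, and the COL5A2 to COL5A1 ratio was 1.47 ± 0.0282. COL12A1, a collagen that decorates the fibril surface, had a mean of 131 FPKM.

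Type VI collagen, which forms beaded microfibrils around cells, held the next largest share of the collagen counts. COL6A2 had 614, 596 and 631 FPKM in replicates 1, 2 and 3, COL6A1 had 519, 520 and 538 FPKM, and COL6A3 had 323, 320 and 322 FPKM. In each library the order was COL6A2, COL6A1, COL6A3. The FPKM ratio of COL6A1 to COL6A3 was 1.64 ± 0.0320 (SD, n = 3), whereas the ratio of their counts, which are not corrected for length, was 0.660. The 3 chains together made up 19.6% of the collagen counts.

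The basement membrane chains COL4A1 and COL4A2, which form the sheet under epithelia and vessels, were also high. COL4A2 had 355, 338 and 350 FPKM and COL4A1 had 286, 277 and 274 FPKM, a ratio of 1.25 ± 0.0286. Below them came COL18A1 with a mean of 44.6 FPKM, COL8A1 with 35.7 FPKM and COL16A1 with 25.0 FPKM. At the far end, the cartilage collagen COL2A1 was at 0 counts in every library and COL9A2 had a mean of 0.54 FPKM.

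**Figure D3:**
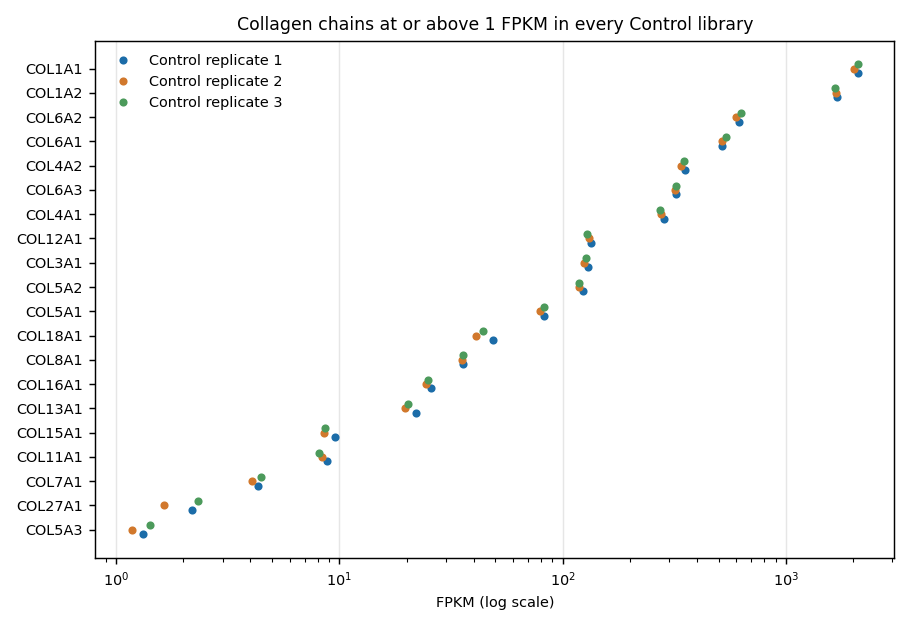
FPKM (log axis) of the 20 collagen chains at or above 1 FPKM in every library, with 1 point per Control library and chains ordered by mean. The chains of types I, VI and IV occupied the top, with COL1A1 at 2077 FPKM and COL3A1 at 127 FPKM.

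Matrix glycoproteins held 3.89% ± 0.0206 of the counts, and 43 of 59 reached 1 FPKM in every library, against 45.8% of all features. FN1 (chr2:215360440-215436073), the adhesive protein that cells assemble into fibrils, contributed 50.3% of the list's counts. It had 671608, 682595 and 692961 counts in replicates 1, 2 and 3 and 2235, 2185 and 2195 FPKM. SPARC, a collagen-binding protein that regulates fibril formation (chr5:151661096-151686975), had 1021, 1049 and 986 FPKM. IGFBP7, a secreted protein of the insulin-like growth factor binding family, had a mean of 891 FPKM, and TGFBI, an adhesion protein induced by TGF-beta, 646 FPKM. These values placed FN1 above all other glycoproteins, and its FPKM was 1.06 ± 0.0152 times that of COL1A1.

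Glycoproteins tied to tension and growth signals were among the high members. CCN2, the connective tissue growth factor and a target of YAP and TEAD, had 463, 459 and 455 FPKM, and CCN1 had 280, 287 and 292 FPKM. THBS1, thrombospondin-1, which releases TGF-beta from its latent form, had 244, 235 and 246 FPKM. Genes of the elastic fibre ranged widely. EFEMP2 had a mean of 191 FPKM, FBLN5 of 81.3 FPKM, ELN, elastin, of 49.0 FPKM, FBN1, fibrillin-1, of 48.8 FPKM, MFAP2 of 4.06 FPKM and MFAP5 of 0.25 FPKM. Tenascin-C (TNC) had a mean of 95.4 FPKM, whereas periostin (POSTN), another protein of remodelled matrix, had 2.96, 2.92 and 2.68 FPKM. MGP, matrix Gla protein, had a mean of 0.16 FPKM.

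Among laminins, the cross-shaped glycoproteins of basement membranes, LAMC1 led with a mean of 105 FPKM. Its FPKM was 2.82 times that of LAMB1 and 34.8 times that of LAMA4 as means over the libraries. The ratio to LAMA4 was spread more widely than the others, with 30.4, 35.8 and 38.2 in replicates 1, 2 and 3.

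Proteoglycans, proteins with long sugar chains, were a small list with 0.281% ± 0.00450 of the counts. Among the 20 genes, 11 reached 1 FPKM in every library, a share not far from the 45.8% of all features. DCN, decorin, which binds collagen fibrils and sets their width, had 474, 571 and 487 FPKM, with replicate 2 the highest. Its mean was 511 ± 52.4 FPKM (SD, n = 3), and it held 57.8% of the list's counts. BGN, biglycan, had a mean of 103 FPKM, HSPG2, perlecan, 35.5 FPKM, LUM, lumican, 31.2 FPKM and VCAN, versican, 10.7 FPKM. OGN and OMD were at 0 counts.

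Enzymes and regulators that work on the matrix held 1.77% ± 0.00268 of the counts. Of 48 genes, 40 reached 1 FPKM in every library and 7 stayed under it, against 45.8% and 51.8% of all features. MMP3, a stromelysin, was on both sides, at 1.10, 0.873 and 0.597 FPKM. TIMP1 and TIMP2, the inhibitors of matrix metalloproteinases, had means of 826 and 373 FPKM. SERPINH1, the collagen chaperone HSP47, had 430, 425 and 445 FPKM.

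The lysyl oxidases, which oxidise lysines so that collagen and elastin chains join, ran from LOXL2 with a mean of 363 FPKM and LOX with 274 FPKM through LOXL1 with 88.9 FPKM to LOXL3 with 8.19 FPKM and LOXL4 with 3.65 FPKM. TGM2, a transglutaminase that also crosslinks matrix, had a mean of 48.9 FPKM. Of the matrix proteases, MMP14 had a mean of 190 FPKM, MMP2 of 159 FPKM and MMP1 of 40.6 FPKM. The FPKM of TIMP1 was 5.21 ± 0.172 times that of MMP2 (SD, n = 3). TLL1, a procollagen protease, was at 0 counts.

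Secreted signalling proteins held 2.13% ± 0.00925 of the counts, and 53 of 66 reached 1 FPKM in every library, against 45.8% of all features. The list was led by antagonists and binding proteins. DKK3, a secreted protein of the dickkopf family, had 741, 754 and 740 FPKM. FST, follistatin, which traps activin, had 449, 449 and 447 FPKM. GREM1, gremlin, which blocks bone morphogenetic proteins, had 310, 307 and 295 FPKM, and it stood at rank 10 by counts but at rank 192 by FPKM. GREM1 held 23.0% of the list's counts.

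Each binding protein of the insulin-like growth factors in the list stood above the growth factors themselves. IGFBP5 had 601, 598 and 603 FPKM, IGFBP4 had a mean of 530 FPKM and IGFBP3 of 274 FPKM. These 3 made up 28.6% ± 0.497 of the list's counts. IGFBP6 had a mean of 61.6 FPKM and IGFBP2 of 16.6 FPKM. IGF2 had 4.38, 3.70 and 5.05 FPKM and IGF1 0.022, 0.013 and 0 FPKM. A second, overlapping row named IGF2 had 3 counts in replicate 1 and 0 in the other libraries.

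Ligands of the TGF-beta family were led by TGFB1 with 34.0, 31.2 and 35.3 FPKM and INHBA, a chain of activin, with 46.3, 45.9 and 44.8 FPKM. TGFB2 had a mean of 5.14 FPKM and TGFB3 of 0.19 FPKM. The cytokine IL11 had a mean of 26.4 FPKM, and IL6 had 1.88, 2.30 and 1.67 FPKM. FGF7, a growth factor for epithelium, had a mean of 9.04 FPKM, whereas FGF10, the ligand that drives lung branching, was at 0 counts in every library, as were C3, IL33 and CCL7.

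TATAAA, the core of a TATA box, was searched on the coding strand in the last 50 bases before the start site of the same RefSeq promoters. It stood in 21 of 221 promoters of the matrix and secreted lists (9.50%), in 20 of the 166 genes with a promoter entry. Over all 20923 promoters the share was 3.12%, and none of the 53 promoters of the cytoskeletal list held it. At a share of 3.12%, few of 53 promoters would hold it, and ACTB and TAGLN, without a promoter entry, were not searched. Of the 258 CArG boxes found over all promoters, 12 hold the letters TATAAA themselves. The 3 windows below, with TATAAA in capitals, are from genes at the top and bottom of these lists and lie outside every exon in GENCODE 44.
COL6A2, chr21:46098068-46098097, plus strand: ggcggggcggggTATAAAgggggcggcgcc
IGFBP4, chr17:40443409-40443438, plus strand: gccagggaccggTATAAAgtccgggggagc
CCL7, chr17:34270179-34270208, plus strand: ctctctgcttccTATAAAaggcagagacag

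The motif starts 32 bases before the start site in COL6A2, 29 in IGFBP4 and 30 in CCL7. COL6A2 had a mean of 614 FPKM and IGFBP4 of 530 FPKM, whereas CCL7 was at 0 counts, so genes with the motif stood at both ends of the range. By level, TATAAA stood in 7.69% of promoters of genes at or above 1000 FPKM (2 of 26 promoters), in 3.53% from 100 to 1000 FPKM, in 1.29% from 10 to 100 FPKM and in 1.14% from 1 to 10 FPKM. Genes under 1 FPKM had it in 5.76% of promoters. Members of these lists without a promoter entry include COL1A1 and COL1A2.

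The machinery behind secretion was expressed throughout. All 22 genes of the endoplasmic reticulum folding list passed 1 FPKM in each library, and 13 had a mean of at least 100 FPKM, against 45.8% and 2.46% of all features. CALR, calreticulin, a calcium-binding chaperone, had 826, 827 and 831 FPKM. P4HB, the disulfide isomerase that is also the beta subunit of collagen prolyl hydroxylase, had a mean of 478 FPKM, and PPIB, a prolyl isomerase of the collagen-modifying complex, 391 FPKM. HSP90B1, the chaperone of the endoplasmic reticulum, had a mean of 466 FPKM.

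Genes of protein synthesis were present without exception in their lists. All 78 cytosolic ribosomal protein genes passed 1 FPKM in each library, against 45.8% of all features. A mean of at least 100 FPKM was reached by 73, against 2.46% of all features. The leaders were RPS2 with a mean of 1392 FPKM, RPLP0 with 1257 FPKM, RPL7A with 1039 FPKM and RPS18 with 1033 FPKM, and the median of the list was 408 FPKM against 0.619 FPKM over all features. Many ribosomal protein genes have processed pseudogenes that can take their reads. The list as a whole held 3.70% ± 0.0705 of the counts and 9.30% ± 0.149 of the summed FPKM.

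All 18 translation factors and all 18 glycolytic genes passed 1 FPKM in each library, against 45.8% of all features. After EEF1A1, the translation factors were led by EEF2 with a mean of 706 FPKM, the helicase EIF4A1 with 628 FPKM and EEF1G with 522 FPKM. The glycolytic enzyme GAPDH had 3276, 3265 and 3310 FPKM, and PKM, pyruvate kinase, had a mean of 1206 FPKM, the enolase ENO1 of 876 FPKM and the aldolase ALDOA of 707 FPKM.

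The 13 mitochondrially encoded protein genes held 1.68% ± 0.0589 of the counts and 4.51% of the summed FPKM. MT-CO2 had 3899, 3974 and 4156 FPKM and MT-CO1 had 2940, 2963 and 3048 FPKM. Both mRNAs were highest in replicate 3. MT-ND4, of complex I, had a mean of 1784 FPKM and MT-ATP8, of the ATP synthase, of 1656 FPKM. MT-ATP8 stood at rank 18 by FPKM but at rank 374 by counts.

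Fibroblast identity was described with a list of 28 genes. The list was chosen with earlier results of these data known, so their presence is no independent check of identity. All 28 passed 1 FPKM in every library and 14 had a mean of at least 100 FPKM, against 45.8% and 2.46% of all features. The median of the list was 98.6 FPKM, and levels ran from 2.35 FPKM for MME to 3825 FPKM for VIM. THY1, the surface glycoprotein CD90 (chr11:119415476-119424985), had 215, 232 and 224 FPKM. PDGFRB, the beta receptor for platelet-derived growth factor (chr5:150113839-150155872), had 46.3, 45.2 and 48.6 FPKM. PDGFRA, the alpha receptor, had 16.4, 16.8 and 15.7 FPKM, and the PDGFRB to PDGFRA ratio was 2.87 ± 0.211. All 7 genes given as markers of the line are in this list and were present, with COL1A1, COL1A2, FN1, VIM and SPARC at means over 1000 FPKM.

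Other surface and adhesion genes of the list were also well expressed. CD44, a receptor for hyaluronan, had 352, 336 and 302 FPKM. NT5E, the ectonucleotidase CD73, had a mean of 151 FPKM, ENG, endoglin, 63.6 FPKM, CDH2, N-cadherin, 43.1 FPKM and CDH11, the mesenchymal cadherin, 40.0 FPKM. FAP, fibroblast activation protein, had a mean of 30.4 FPKM. S100A4, once called fibroblast-specific protein, had 5.60, 4.64 and 4.51 FPKM.

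**Figure D4:**
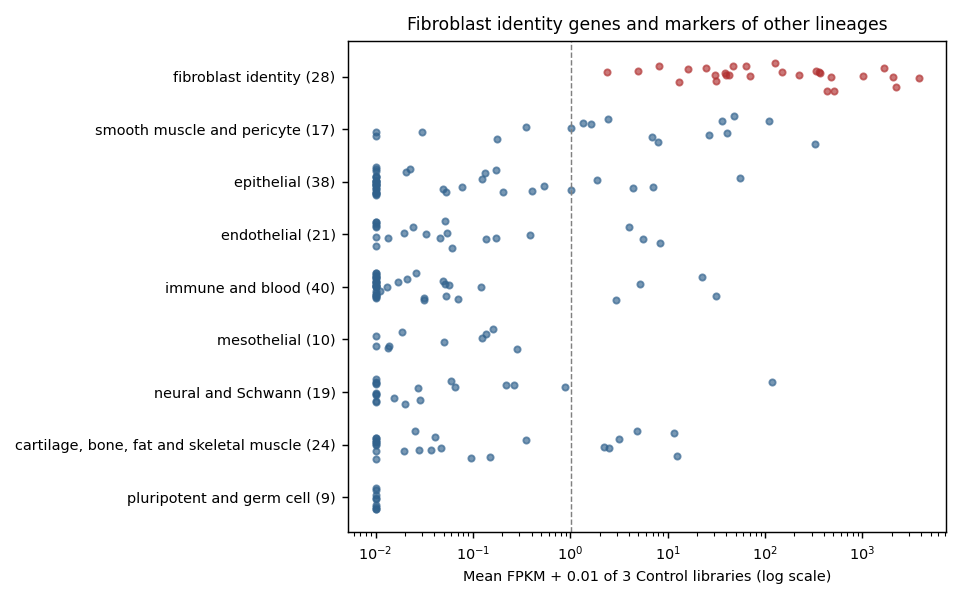
Mean FPKM of each gene of the fibroblast identity list and of the lists for other lineages on a log axis, with 1 point per gene and 0.01 added so that genes at 0 stand at the left edge; the dashed line marks 1 FPKM. Fibroblast genes lay between 2.35 and 3825 FPKM, whereas 82 of the 176 lineage markers were at 0 counts.

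Markers of other lineages were mostly near 0. The 8 lists hold 176 genes, of which 82 had 0 counts in every library, 125 had a mean under 0.1 FPKM and 144 stayed under 1 FPKM in every library. Of all features, 25.0% had 0 counts in every library, 38.4% had a mean under 0.1 FPKM and 51.8% stayed under 1 FPKM in every library. In every library, 29 reached 1 FPKM, and AGER, SYNPO2 and SNAP25 lay on both sides. Together the lists held 0.278% ± 0.00547 of the counts, and without the smooth muscle and pericyte list 0.0746% ± 0.00143. These shares leave out TAGLN, ACTA2, MYL9 and CNN1, which are known from smooth muscle but were placed in the cytoskeletal list. TAGLN alone held 0.250% of the counts and ACTA2 0.129%. The median marker had 0.0061 FPKM, against 0.619 FPKM over all features.

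Epithelial markers were near 0. Of 38 genes, 33 stayed under 1 FPKM in every library and 22 had 0 counts, against 51.8% and 25.0% of all features. Those at 0 counts included SFTPB and SFTPC, surfactant proteins of alveolar type 2 cells. NKX2-1, the lung epithelial regulator, SCGB1A1 of club cells and FOXJ1 of ciliated cells were also at 0 counts. EPCAM had 13, 11 and 0 counts and CDH1, E-cadherin, 3, 4 and 0 counts in replicates 1, 2 and 3. The exceptions were the simple keratins KRT18 with 54.4, 54.1 and 56.3 FPKM, KRT8 with a mean of 7.10 FPKM and KRT7 with 1.87 FPKM, and the tight junction gene CLDN4 with 4.39 FPKM. KRT18 made up 71.6% of the counts of the list.

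Of 21 endothelial markers, 18 stayed under 1 FPKM in every library and 7 had 0 counts, against 51.8% and 25.0% of all features. PECAM1 and CDH5, junction proteins of the vessel wall, were at 0 counts in every library, and VWF had 19, 17 and 18 counts. FLT1, a receptor for vascular endothelial growth factor, had 8.95, 8.58 and 7.18 FPKM, EGFL7 had a mean of 5.58 FPKM and TEK, the angiopoietin receptor, 4.03 FPKM.

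Of 40 immune and blood markers, 36 stayed under 1 FPKM in every library and 23 had 0 counts, against 51.8% and 25.0% of all features. PTPRC, the pan-leukocyte antigen CD45, had 0, 4 and 4 counts, and LYZ, TYROBP and CD3E were at 0 counts in every library. CD4, the co-receptor of helper T cells, had 22.2, 21.4 and 23.3 FPKM, from 2562, 2581 and 2836 counts. CD68, a lysosomal protein found in macrophages and other cells, had a mean of 31.0 FPKM, KIT 5.23 FPKM and CORO1A 2.92 FPKM.

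Among the lineage lists, smooth muscle and pericyte genes had the most members present, 11 of 17, against 45.8% of all features. ACTG2, the enteric smooth muscle actin, had 321, 328 and 325 FPKM, MCAM, the adhesion molecule CD146, 111, 111 and 111 FPKM, and SMTN a mean of 48.3 FPKM. MYOCD, the SRF coactivator of smooth muscle, had 7.57, 7.69 and 8.35 FPKM. The pericyte genes NOTCH3 and CSPG4 had means of 41.0 and 26.4 FPKM, and RGS5 had 2.42 FPKM. LMOD1, which nucleates actin in smooth muscle, had 36.1 FPKM, the channel subunits KCNJ8 and ABCC9 had 6.84 and 1.62 FPKM, and NDUFA4L2 had 1.34 FPKM, all as means. The 5 members under 1 FPKM in every library included MYH11, smooth muscle myosin, at 0.395, 0.241 and 0.389 FPKM. DES, desmin, was another, at a mean of 0.17 FPKM.

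None of the 10 mesothelial markers reached 1 FPKM in any library, and UPK1B was the highest with a mean of 0.271 FPKM, ahead of CALB2, MSLN and KRT19. None of the 9 pluripotent and germ cell markers had a count in any library, NANOG and LIN28A among them. Of 19 neural and Schwann cell markers only TUBB3, a beta-tubulin of neurons, reached 1 FPKM in every library, at 111, 121 and 122 FPKM, whereas SOX10 was at 0 counts. In the list of cartilage, bone, fat and skeletal muscle, 6 of 24 reached 1 FPKM in every library, against 45.8% of all features. They were led by the cartilage regulator SOX9 with a mean of 12.5 FPKM and the fat regulator PPARG with 11.6 FPKM. FABP4, a fatty acid carrier, had a mean of 4.88 FPKM, the bone regulator RUNX2 of 3.12 FPKM, the cartilage proteoglycan ACAN of 2.47 FPKM and the cartilage glycoprotein MATN3 of 2.22 FPKM.

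The leading transcription factors lay below the leading matrix genes. Of 34 factors of mesenchyme, 29 reached 1 FPKM in every library, against 45.8% of all features, with a list median of 15.6 FPKM. FOSL1, a member of the AP-1 family, led with 183, 178 and 192 FPKM, followed by CREB3L1, a membrane-bound factor that activates collagen genes, with 102, 102 and 107 FPKM. PRRX2 had a mean of 58.9 FPKM and its paralog PRRX1, a fibroblast regulator, 17.5 FPKM, so PRRX2 was 3.36 times higher per length. YAP1, the tension-sensing coactivator, had 53.2, 64.5 and 54.5 FPKM, and SNAI2, which represses epithelial genes, 45.4, 45.0 and 45.4 FPKM. SMAD3, which carries the TGF-beta signal, had a mean of 35.8 FPKM. MEOX1, MEOX2 and EBF2 were at 0 counts.

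Of 19 factors of the lung mesenchyme, 11 reached 1 FPKM in every library, a share not far from the 45.8% of all features. The list median was 1.85 FPKM. TBX2 led with 77.9, 77.1 and 83.1 FPKM. FOXF1, which is needed for the lung mesenchyme and its vessels, had 47.3, 47.7 and 46.3 FPKM. TBX5 had 11.7, 11.4 and 11.6 FPKM, whereas TBX4, its relative that is also known in lung mesenchyme, had 0, 4 and 5 counts, near the floor. FOXL1 had a mean of 29.3 FPKM, TBX3 of 16.2 FPKM and FOXF2 of 13.6 FPKM. NKX2-3 and NKX3-2, which mark gut and axial mesenchyme, were at 0 counts.

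The HOX genes, which keep a record of position along the body axis, were on in 2 clusters. Of the 39 genes, 11 reached 1 FPKM in every library and 16 had 0 counts, against 45.8% and 25.0% of all features. In HOXB, 7 of 10 genes reached it, with HOXB2 at 24.2, 26.4 and 25.5 FPKM, HOXB6 at 19.9, 21.7 and 22.5 FPKM, HOXB3 at 15.6, 17.4 and 16.6 FPKM and HOXB5 at 14.2, 14.3 and 13.0 FPKM. The summed level of the cluster was 89.3 ± 3.16 FPKM (SD, n = 3). In HOXA, 4 of 11 genes reached it, HOXA3, HOXA4, HOXA5 and HOXA7, and HOXA5, which is needed for lung development, led with 5.30, 5.75 and 5.29 FPKM. The summed level of HOXA was 14.3 ± 0.655 FPKM.

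The other clusters were near 0. No HOXC gene exceeded a mean of 0.160 FPKM, and HOXC summed to 0.332 FPKM. In HOXD, 8 of 9 genes had 0 counts and HOXD8 had a mean of 0.0086 FPKM. The ranges of the 4 clusters over libraries did not overlap.

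**Figure D5:**
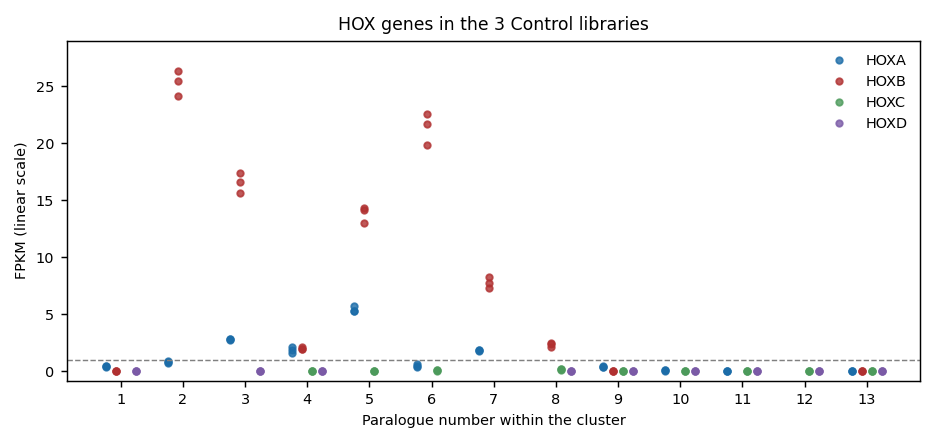
FPKM (linear axis) of the 39 HOX genes by paralog number, with 1 point per Control library and colours for the 4 clusters. Signal lay in the HOXB genes, up to a mean of 25.3 FPKM at HOXB2, and in 4 HOXA genes, up to a mean of 5.44 FPKM, while the means of HOXC and HOXD genes stayed at or under 0.160 FPKM.

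Genes of division and of arrest were both expressed. Of 25 cell cycle genes, 24 reached 1 FPKM in every library, with CCND1, cyclin D1, at 286, 288 and 274 FPKM, the replication clamp PCNA at a mean of 90.8 FPKM, HMGB2 and TYMS at means of 69.3 and 69.2 FPKM, TOP2A at 50.1, 52.3 and 47.6 FPKM and MKI67 at 9.71, 9.57 and 10.3 FPKM. CCND2 was below in every library, with a mean of 0.887 FPKM. Of 17 genes of arrest and senescence, 15 reached 1 FPKM in every library. The share over all features, for comparison with both lists, was 45.8%. CDKN1A, the inhibitor p21, had 349, 347 and 339 FPKM and CDKN2A, the p16 locus, 12.3, 12.2 and 12.2 FPKM, a ratio of 28.2 ± 0.410. IL1B was at 0 counts, and GLB1, the senescence-associated beta-galactosidase, had a mean of 31.6 FPKM. GADD45A, a stress response gene, had 64.9, 67.4 and 60.8 FPKM.

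ZNF469, the gene that the hairpin targets when induced (chr16:88382959-88440757), had 8.02, 7.62 and 8.45 FPKM in replicates 1, 2 and 3. Its mean of 8.03 ± 0.415 FPKM (SD, n = 3) placed it at rank 5940 of 23754 by FPKM. Its counts were 3981, 3941 and 4409, which placed it at rank 1618 by counts. ZNF469 encodes a large zinc finger protein that has been linked to collagen and to a disorder of the cornea.

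The libraries differed little for abundant features and more for rare ones. The median coefficient of variation of FPKM was 7.24% for the 6016 features from 1 to 10 FPKM, 4.16% from 10 to 100 FPKM, 2.93% from 100 to 1000 FPKM and 2.06% at or above 1000 FPKM. The counting error expected from each feature's mean count (the inverse of its square root) had medians of 4.37%, 2.07%, 0.845% and 0.338%. It was not computed as a coefficient of variation over 3 libraries, so the values compare only roughly. The median coefficient of variation of the counts was 6.41%, 3.65%, 2.52% and 2.14%.

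For a few features the FPKM varied while the counts did not. Of the 5137 features at or above 10 FPKM, 47 had a coefficient of variation of FPKM over 20%, and 15 of these had one under 5% by counts. TRAPPC5, a subunit of a vesicle tethering complex, had 6.51, 8.66 and 26.4 FPKM from 801, 863 and 860 counts. HDAC2, a histone deacetylase, had 15.6, 39.4 and 15.0 FPKM from 5731, 6367 and 5690 counts. EEF1A1, the elongation factor at rank 5, had 3579, 4215 and 3200 FPKM, a mean of 3665 ± 513 FPKM (SD, n = 3), while the coefficient of variation of its counts was 1.48%. AP1M1, a clathrin adaptor subunit, ranged from 15.6 to 40.3 FPKM over 4225 to 4533 counts. For these genes the FPKM, and the rank made from it, was spread more widely than the counts, and the cause was not tested.

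For others both varied. MATR3, a nuclear matrix protein, has a pair of overlapping rows on chromosome 5. One row had 7.05, 39.0 and 34.9 FPKM and the other 56.4, 26.6 and 26.6 FPKM, so the rows moved in opposite directions between libraries. NewGene_2431, an unannotated locus, had 198, 94 and 91 counts and a coefficient of variation of FPKM of 51.0%.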

How the data were processed

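Per the submitters' processing notes, the authors used HISAT2, StringTie and the GRCh38 build, after a filter on read quality; tool versions, the annotation release and the step that gave whole counts are not given in the sources used here. The deposited table holds a raw count and an FPKM value for each feature and library. FPKM was computed by the authors per kilobase and 1000000 fragments and was not rescaled. Of the table, 17 stray lines without gene or values were dropped, and no column of sample values was left unmapped (0). The doxycycline-treated libraries were not analysed here.

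Mean, SD and coefficient of variation were taken over the 3 Control libraries with Python 3.11.15, numpy 2.4.6 and pandas 2.3.3, and figures were drawn with matplotlib 3.10.9. A gene was counted as present at an FPKM of at least 1 in every library. Shares of counts are shares of reads, not of molecules. Coordinates come from GENCODE 44, which matched 19883 of 19974 Ensembl identifiers and may not be the authors' release. RefSeq promoters were found for 14827 genes. The gene lists and members were chosen with earlier results of these data known. The rule for named genes took the 20 highest features, the given markers, ZNF469, the 4 highest members of each list (for lineage lists, in the text, those at or above 1 FPKM, up to 10), collagen chains of types I, III, IV, V and VI, and the 5 most variable features at or above 10 FPKM. Further list members, among them those at 0, were named after their values were seen. Scripts were tested on simulated data. Alternatives were other thresholds, shares of summed FPKM, rescaling to TPM, leaving out mitochondrial mRNAs or unannotated loci, and leaving out each library. The results of 1 named gene are not reported here, although it entered every list sum.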

Additional observations from a re-analysis of the deposited data

How the results depend on the processing

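The shares depended most on the unit. With the share of summed FPKM in place of counts, 349 features held 50% instead of 598, the collagen chains held 1.70% instead of 4.34%, and the matrix and secreted lists together held 6.59% instead of 12.4%. Leaving out the mitochondrially encoded mRNAs gave 4.41% for the collagen chains and 12.6% for the matrix and secreted lists, and leaving out the unannotated loci gave 12.5% for the latter. These small shifts exceeded the SD between libraries. Rescaled to TPM, the level of ZNF469 was 21.2 in place of 8.03 FPKM.

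The other 37 alternatives moved a share or level by less than 1 SD between libraries and left the counts of features and genes of like size, including all 21 that left out a library. Features at or above the threshold numbered 12210 at 0.5 FPKM, 9915 at 2 FPKM and 12623 at 1 TPM, against 11153. Without 1 library, 11150 to 11156 features reached 1 FPKM, 595 to 602 features held 50% of the counts, collagen chains held 4.31% to 4.38%, the matrix and secreted lists held 12.4% to 12.5%, the identity genes stayed at 28, lineage markers under 1 FPKM numbered 144 to 146, and ZNF469 had 7.82 to 8.24 FPKM. At 2 FPKM, 27 identity genes were present and 150 lineage markers were below, against 143 at 0.5 FPKM, 140 under 1 TPM and 121 with under 10 counts in each library. No paired analysis was possible because the results come from no test. Genes with few counts are limited by depth, and a gene at 0 counts may still be expressed under the floor.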

Other observations

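The 3780 unannotated loci included 460 with a mean of at least 1 FPKM, 44 with at least 10 FPKM and 6 with at least 100 FPKM. The highest had 611, 605 and 592 FPKM in Control replicates 1, 2 and 3, a mean of 603 FPKM, and the authors' annotation column names it after EEF1A1P5, a processed pseudogene of EEF1A1. Of the 47 features at or above 10 FPKM whose FPKM had a coefficient of variation over 20%, 4 were unannotated loci. The table lists 15 gene symbols on more than 1 row.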
